A study of Mus musculus with 12 samples.

Results

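Satellite cells sit between the muscle fibre and its basal lamina, and the genes described here encode cell adhesion proteins and their partners inside the cell. They are 9 named genes out of the 55401 genes in the count table: the cadherins Cdh15, Cdh4, Cdh2 and Cdh11, the catenins Ctnnb1, Ctnna1 and Ctnnd1, and the immunoglobulin-type adhesion genes Ncam1 and Cadm1. They were chosen by name for their role in adhesion, with earlier results of these data known. RNA-seq was carried out on Pax7-ZsGreen+ satellite cells from mouse hind limbs, in 12 libraries. Every mouse carried CXCR4 FL/FL and the Pax7-ZsGreen reporter, and every mouse received 5 daily tamoxifen injections of 80 mg/kg. KO mice also carried Pax7-creERT2, which recombines the floxed alleles in cells expressing Pax7, and WT mice lacked the cre. Cells were taken directly after sorting (quiescent, 4 WT and 4 KO libraries) or after overnight culture (activated, 2 WT and 2 KO libraries). The mice were adults of 3 to 4 months. Their sex and the number of animals behind a library are not given in the sources used here, so p-values measure the spread between libraries only.

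Classical cadherins are calcium-dependent receptors that bind the same cadherin on a neighbouring cell. Inside the cell their tails bind β-catenin (Ctnnb1) and p120-catenin (Ctnnd1). α-catenin (Ctnna1) links the complex to actin, p120-catenin protects the cadherin from removal from the surface, and β-catenin is also a transcriptional co-activator of Wnt signaling. M-cadherin (Cdh15) marks the contact between satellite cell and fibre, and N-cadherin (Cdh2) is known for its part in keeping satellite cells quiescent.

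Total counts were 12775593 to 23717013 in the quiescent and 3172164 to 5427280 in the activated libraries, so values of the activated state rest on fewer reads. A ribosomal RNA gene (CT010467.1) took under 1% of the quiescent counts, but 12.64% and 40.32% of the counts of WT activated replicates 1 and 2 and 11.45% and 28.81% of those of KO activated replicates 1 and 2. The deletion was visible in Cxcr4 itself, which fell from 80.5 ± 25.3 CPM in quiescent WT cells to 17.1 ± 3.54 CPM in quiescent KO cells (CPM is counts scaled to library size; SD, n = 4 a group; log2 fold change -2.24, adjusted p = 0.004769, edgeR). After culture the WT libraries averaged 23.9 ± 13.3 CPM of Cxcr4 and the KO libraries 9.54 ± 5.86 CPM (SD, n = 2 a group; log2 fold change -1.35, adjusted p = 0.381, edgeR). Pax7, which defines satellite cells, was present in all libraries (lowest 71.2 CPM, in a KO activated library), and it fell on activation by 1.84 on the log2 scale in WT (adjusted p = 0.0001627, edgeR) and by 1.30 in KO (adjusted p = 0.002685, edgeR). Of 6 satellite cell markers, 5 fell in WT and 6 in KO, with sums of 2724 to 4318 CPM in quiescent and 972 to 1529 CPM in activated libraries. Summed markers of mature fibres were at most 840 CPM in quiescent and at least 6026 CPM in activated libraries, and all 6 of them rose in both genotypes. Of 5 markers of early differentiation, 0 rose and 1 fell in each genotype. Their sums were 43.0 to 150 CPM in quiescent and 16.2 to 61.1 CPM in activated libraries. The 4 Y-linked genes summed to at least 358 CPM in each quiescent library and at most 2.51 CPM in each activated one, while Xist was at most 7.17 CPM and at least 451 CPM. The sex of the mice and the cell state therefore cannot be told apart here, nor can fewer cells of a type and less RNA per cell.

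The plot of CPM by library shows the 9 genes in the 4 groups. All 9 passed the filter on low counts.

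**Figure D1:**
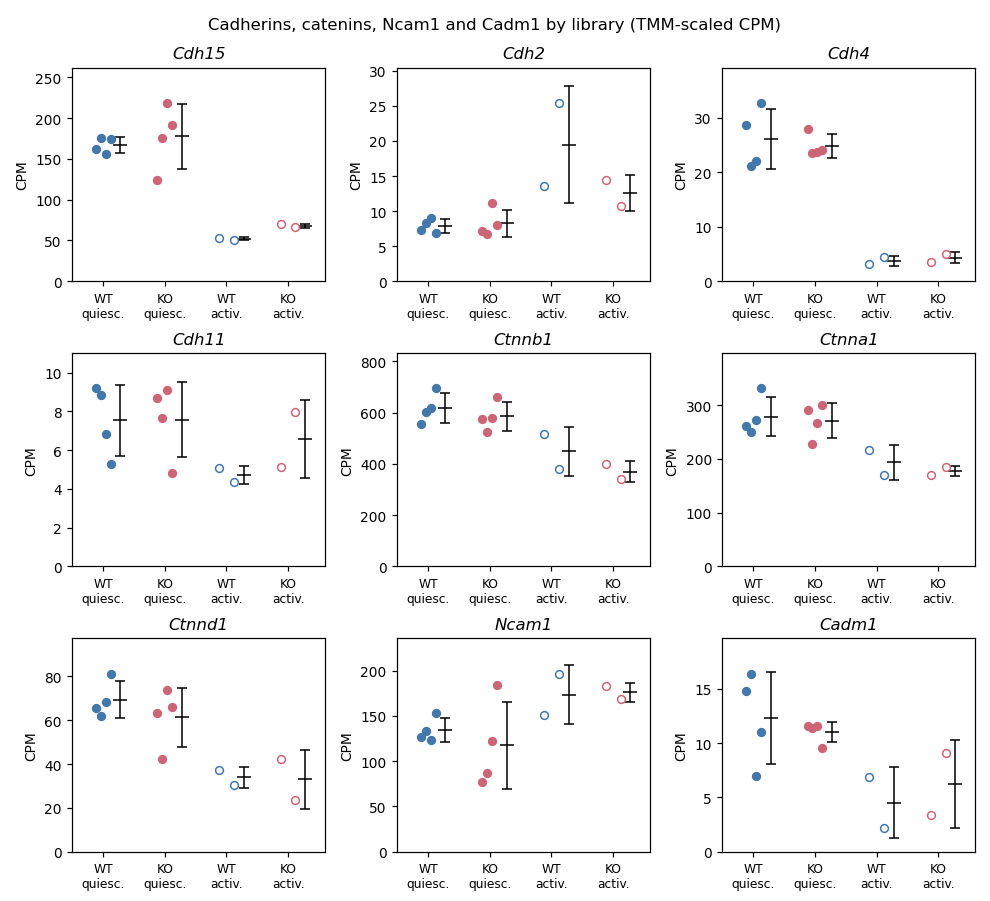
Each panel plots 1 gene, with CPM scaled by TMM on a linear axis from 0 and 1 point for each library (filled quiescent, open activated; blue WT, red KO); the bar beside the points is the mean ± SD. Cdh15 and Cdh4 lie lower in all activated libraries than in any quiescent one, and Cdh2 lies highest in WT activated replicate 2 at 25.4 CPM.

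On the per-length scale (CPM per kilobase of exon, n = 4), quiescent WT cells held most Ctnnb1 (119 ± 11.1), followed by Cdh15 (51.3 ± 2.90) and Ctnna1 (43.3 ± 5.64). Cdh15 was above Ctnna1 in 4 of 4 WT quiescent libraries and in 3 of 4 KO quiescent libraries, and the ranges of these levels overlapped in both genotypes. Ncam1 (15.5 ± 1.57), Ctnnd1 (9.46 ± 1.15) and Cdh4 (3.61 ± 0.755) came next, with ranges apart from each other in WT. Cadm1 (1.18 ± 0.405), Cdh2 (0.978 ± 0.117) and Cdh11 (0.848 ± 0.205) came last with overlapping ranges. In activated WT cells (n = 2) the per-length order had changed, with Cdh15 (16.1 ± 0.607) below Ctnna1 (30.1 ± 4.97) and Ncam1 (20.04 ± 3.75), and with Cdh2 (2.41 ± 1.04) above Cdh11, Cdh4 and Cadm1, which overlapped between 0.210 and 0.657.

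The first question was which adhesion genes differed between freshly sorted WT cells and WT cells cultured overnight. Both sets of cells had been released from the fibres by enzyme digestion before sorting. Of the 9 genes, 1 was higher in activated WT cells (Cdh2) and 4 were lower (Cdh15, Cdh4, Ctnnd1 and Cadm1) by edgeR's quasi-likelihood test at an adjusted p of 0.05. Over all 25771 genes tested, 11.5% were higher and 18.3% lower. In KO cells none of the 9 was higher and 4 were lower (Cdh15, Cdh4, Ctnnb1 and Ctnnd1), where 13.3% of all genes were higher and 20.4% lower. The median log2 fold change of the 9 genes was -0.66 in WT and -0.67 in KO, against -0.92 and -0.96 over all genes tested. Among the 9949 genes at least as abundant as the lowest of the 9 (mean of 7.06 CPM), the medians were -0.11 and -0.08, and 24.3% were higher and 28.1% lower in WT.

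**Figure D2:**
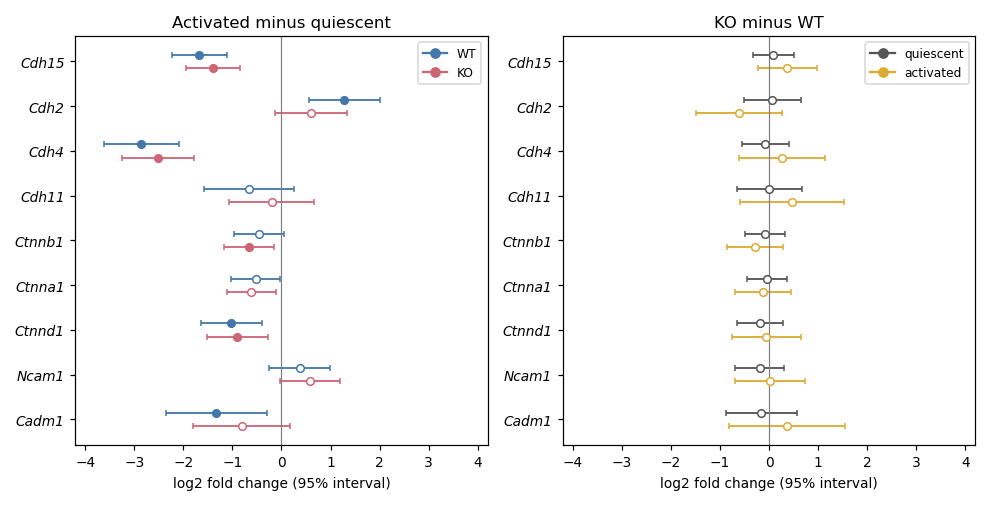
Points are log2 fold changes with their 95% interval on the horizontal axis, for the 9 genes, in activated minus quiescent cells (left, WT blue and KO red) and KO minus WT (right, quiescent grey and activated yellow). Filled points passed an adjusted p of 0.05; Cdh15 and Cdh4 are filled and left of 0 in both genotypes, and no point is filled in the right panel.

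Cdh15 (ENSMUSG00000031962; GRCm38 chromosome 8, 122847966 to 122867397, plus strand), the cadherin of the contact with the fibre, was at 162, 175, 156 and 175 CPM in the WT quiescent libraries and at 53.6 and 50.8 CPM in the WT activated ones. It was at 124, 176, 218 and 192 CPM in the KO quiescent libraries and at 69.6 and 65.9 CPM in the KO activated ones. Every activated library was below every quiescent library. Cdh15 fell by 1.68 on the log2 scale in WT (SE 0.27, adjusted p = 7.862e-05, edgeR), and by 1.39 in KO (SE 0.26, adjusted p = 0.0003754, edgeR). Of the 6 satellite cell markers, 5 fell beside it in WT and 6 in KO, with sums that did not overlap between the states. Sdc4 was the highest of the 6, at 2506 CPM on average in WT quiescent cells. Itga7 did not pass in WT (log2 fold change -0.35, adjusted p = 0.4187, edgeR). The part of these markers in the fall of Cdh15 was not tested. Both falls of Cdh15 kept their direction and passed the threshold when any 1 library was left out.

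RefSeq promoter windows on GRCm38.p6, from 250 bases before to 50 after a transcript start, were matched for 3 of the 9 genes. They are shown for Cdh15 and Ctnnd1, the genes with a window that fell in both genotypes. Capitals mark matches to the E-box pattern CANNTG, the core bound by myogenic and other basic helix-loop-helix factors, which reads the same on both strands. Of 32851 promoter windows of this length, 72.3% hold at least 1 match and 6.49% hold at least 4. The Cdh15 window (chr8:122848124-122848423, plus strand) holds 4. Ctnnd1 has a pair of windows, both on the minus strand, with 1 match upstream (chr2:84658928-84659227) and 0 at the second start (chr2:84650691-84650990). The upstream Ctnnd1 window lies outside the annotated gene whose reads were counted, which ends at 84650765. The Cdh15 window lies inside its annotated gene, which starts at 122847966. The RefSeq starts of these windows therefore differ from the annotated gene starts. A match describes the letters only.
Cdh15: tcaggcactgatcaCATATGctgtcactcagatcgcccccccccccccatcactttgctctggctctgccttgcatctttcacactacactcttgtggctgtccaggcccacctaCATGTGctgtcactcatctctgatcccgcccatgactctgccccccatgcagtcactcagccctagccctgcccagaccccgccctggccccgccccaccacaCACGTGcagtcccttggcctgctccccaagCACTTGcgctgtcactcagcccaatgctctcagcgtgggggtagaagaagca
Ctnnd1, upstream start: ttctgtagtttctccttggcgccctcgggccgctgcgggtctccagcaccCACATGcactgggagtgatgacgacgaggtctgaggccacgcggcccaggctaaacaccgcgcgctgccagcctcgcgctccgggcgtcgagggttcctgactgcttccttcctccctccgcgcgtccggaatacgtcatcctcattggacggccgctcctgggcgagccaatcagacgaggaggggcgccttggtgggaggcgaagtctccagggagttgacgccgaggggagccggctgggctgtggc
Ctnnd1, second start: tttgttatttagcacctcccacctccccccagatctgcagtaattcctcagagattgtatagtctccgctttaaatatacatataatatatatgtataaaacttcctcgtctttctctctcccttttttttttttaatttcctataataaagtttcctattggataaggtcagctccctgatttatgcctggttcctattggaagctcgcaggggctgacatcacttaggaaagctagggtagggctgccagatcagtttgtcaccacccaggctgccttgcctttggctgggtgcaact

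Cdh4 (ENSMUSG00000000305; chromosome 2, 179442431 to 179899373, plus strand) encodes R-cadherin, a close relative of N-cadherin. It had the lowest log2 fold change of the 9. It was at 28.7, 21.2, 22.1 and 32.7 CPM in WT quiescent cells and at 3.10 and 4.38 CPM in WT activated cells, from 19 and 10 reads. The KO quiescent libraries were at 28.01, 23.5, 23.8 and 24.1 CPM and the KO activated ones at 3.596 and 5.02 CPM. No activated library reached any quiescent one. Cdh4 fell 7.26-fold in WT (log2 fold change -2.86, SE 0.37, adjusted p = 7.726e-06, edgeR) and 5.74-fold in KO (log2 fold change -2.52, SE 0.35, adjusted p = 1.632e-05, edgeR), and both calls held without any 1 library.

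Cdh11 (ENSMUSG00000031673; chromosome 8, 102632095 to 102785642, minus strand), a cadherin known from mesenchymal cells, was at 5.30 to 9.19 CPM in WT quiescent, 4.82 to 9.10 CPM in KO quiescent, 4.38 and 5.06 CPM in WT activated, and 5.14 and 7.98 CPM in KO activated libraries. Neither log2 fold change on activation passed the test, at -0.66 in WT (adjusted p = 0.2442, edgeR) and -0.20 in KO (adjusted p = 0.7097, edgeR). The 6 markers of fibroadipogenic progenitors, mesenchymal cells of muscle, were found in every group. Their summed level was 853 to 1575 CPM in WT quiescent, 286 to 2966 CPM in KO quiescent, 250 to 730 CPM in WT activated and 321 to 546 CPM in KO activated libraries. Col3a1 and Col1a1 were the highest of the 6 in WT quiescent cells, at 614 and 465 CPM on average. In WT 0 of the 6 rose and 2 fell (Col3a1 and Ly6a). In KO the same 2 fell and 1 rose, Pdgfra (log2 fold change 2.04, adjusted p = 0.001253, edgeR). The part of these markers in the level of Cdh11 was not tested.

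Cdh2 (ENSMUSG00000024304; chromosome 18, 16588877 to 16809246, minus strand), N-cadherin, was the 1 gene of the 9 that rose. It was at 7.36, 8.30, 8.99 and 6.89 CPM in WT quiescent cells and at 13.6 and 25.4 CPM in WT activated cells, from 83 and 58 reads. Both WT activated libraries were above all WT quiescent ones, and they stood apart from each other. The rise was 2.43-fold in WT (log2 fold change 1.28, SE 0.34, adjusted p = 0.008285, edgeR). Without WT activated replicate 2, the library with the largest ribosomal share, the log2 fold change was 0.84 and did not pass (adjusted p = 0.2359, edgeR), and without WT activated replicate 1 it was 1.76 (adjusted p = 0.003894, edgeR). KO libraries were at 7.15, 6.76, 11.1 and 7.98 CPM in the quiescent and 14.4 and 10.7 CPM in the activated state, with overlap, and their log2 fold change of 0.60 did not pass (SE 0.35, adjusted p = 0.1832, edgeR).

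Since Cdh15 and Cdh4 fell while Cdh2 rose in WT, the make-up of the cadherin mRNA pool was computed per length over these 4 cadherins only. Cdh5, left out, was at 48.9 ± 22.7 CPM per kilobase in WT quiescent and 30.2 ± 33.2 in WT activated libraries. Cdh13, also left out, was at 11.7 ± 0.909 and 1.78 ± 0.0348. Of the pool of 4, Cdh15 made up 90.4% ± 0.940 in WT quiescent and 90.8% ± 2.58 in KO quiescent libraries (SD, n = 4 each). It made up 82.3% ± 5.22 and 87.8% ± 0.572 in WT and KO activated libraries (SD, n = 2 each). Cdh2 made up 1.43% to 2.10% in the 8 quiescent libraries, 8.77% and 15.9% in the WT activated and 7.35% and 5.73% in the KO activated ones. Cdh4 made up 4.49% to 8.78% in quiescent and 2.04% to 3.04% in activated libraries. The share of Cdh2 was above, and that of Cdh4 below, the quiescent range in each activated library of both genotypes. A share also rises when the sum falls, as it did with Cdh15, so the shares alone do not show a gain of Cdh2. In KO the CPM of Cdh2 overlapped between the states. M-cadherin mRNA remained the main cadherin of the 4 in all 12 libraries. The per-length sum of the 4 was 43.98 to 72.9 in quiescent and 19.2 to 24.3 in activated libraries.

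**Figure D3:**
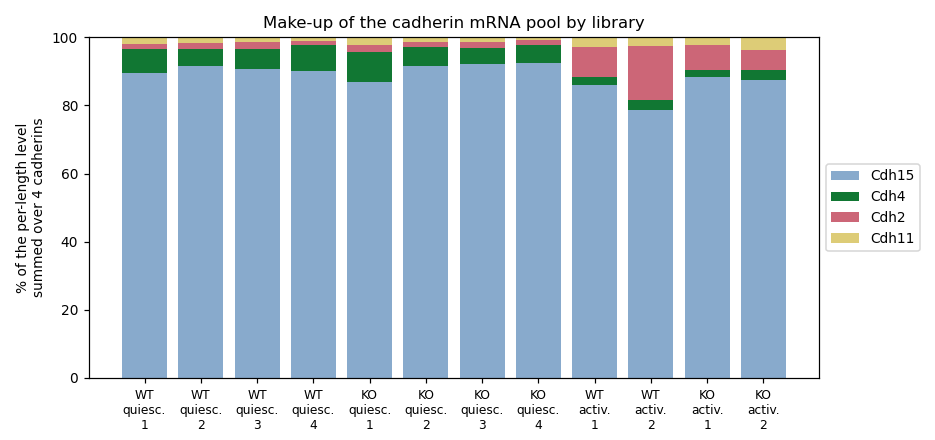
Stacked bars give, for each of the 12 libraries, the percentage of the summed per-length level (CPM per kilobase) of Cdh15, Cdh4, Cdh2 and Cdh11 held by each gene. The Cdh2 part is 1.43% to 2.10% in quiescent and 5.73% to 15.9% in activated libraries.

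Among the catenins, Ctnnd1 fell in both genotypes, Ctnnb1 fell in KO, and Ctnna1 did not pass in either. Ctnnb1 (ENSMUSG00000006932; chromosome 9, 120929216 to 120960507, plus strand) was at 556, 602, 618 and 694 CPM in WT quiescent and 516 and 381 CPM in WT activated libraries, a log2 fold change of -0.46 that did not pass (adjusted p = 0.153, edgeR). In KO it was at 575, 526, 581 and 661 CPM against 398 and 341 CPM, and fell by 0.67 on the log2 scale (SE 0.24, adjusted p = 0.04225, edgeR). In KO the quiescent and activated libraries did not overlap. This call was lost without KO quiescent replicates 1, 3 or 4 or KO activated replicates 1 or 2, each left out alone (adjusted p of 0.05479 to 0.3433, edgeR, log2 fold changes of -0.78 to -0.54).

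Ctnna1 (ENSMUSG00000037815; chromosome 18, 35118859 to 35254779, plus strand) was at 249 to 331 CPM in WT quiescent, 227 to 301 CPM in KO quiescent, 216 and 171 CPM in WT activated and 170 and 184 CPM in KO activated libraries. The activated libraries lay below the quiescent ones of their genotype, but neither log2 fold change passed, at -0.52 in WT (adjusted p = 0.1053, edgeR) and -0.61 in KO (adjusted p = 0.05675, edgeR). The KO value was past the threshold without KO quiescent replicate 2 (log2 fold change -0.67, adjusted p = 0.04224, edgeR). The per-length ratio of Ctnnb1 to Ctnna1 was 2.45 to 2.99 in quiescent and 2.29 to 2.96 in activated libraries, which overlapped.

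Ctnnd1 (ENSMUSG00000034101; chromosome 2, 84600071 to 84650765, minus strand), whose promoter windows are printed above, was at 65.8, 61.8, 68.2 and 81.2 CPM in WT quiescent and 37.2 and 30.7 CPM in WT activated cells. It fell 2.03-fold in WT (log2 fold change -1.02, SE 0.30, adjusted p = 0.0134, edgeR). In KO it was at 63.3, 42.2, 73.6 and 65.9 CPM against 42.4 and 23.5 CPM, with overlap, and fell by 0.90 on the log2 scale (SE 0.29, adjusted p = 0.02425, edgeR). The WT call was lost without WT activated replicate 1 or 2 (log2 fold changes of -1.10 and -0.84, adjusted p of 0.07464 and 0.1758, edgeR), and the KO call without KO quiescent replicate 3 or KO activated replicate 2 (log2 fold changes of -0.79 and -0.52, adjusted p of 0.05932 and 0.39, edgeR). Without KO activated replicate 1 the KO value was -1.39 (adjusted p = 0.01672, edgeR). Of the 7319 exon bases of Ctnnd1, 4482 are shared with the annotated gene Gm28635 on the same strand, which has 0 counts, so the level of Ctnnd1 is uncertain where the counting could leave out reads that fit both genes.

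Ncam1 (ENSMUSG00000039542; chromosome 9, 49502136 to 49798925, minus strand), an immunoglobulin-type adhesion protein that carries polysialic acid, was at 126, 134, 123 and 154 CPM in WT quiescent and 151 and 197 CPM in WT activated libraries. In KO it ranged widely in the quiescent state, at 76.8, 87.5, 122 and 184 CPM, against 183 and 169 CPM after culture. The groups overlapped in both genotypes. The log2 fold change was 0.37 in WT (95% interval -0.24 to 0.98, adjusted p = 0.3267, edgeR) and 0.58 in KO (95% interval -0.03 to 1.19, adjusted p = 0.1254, edgeR). Without KO quiescent replicate 4, the highest of its group, the KO value was 0.89 and passed (adjusted p = 0.009391, edgeR). Markers of Schwann cells, which also express Ncam1, summed to 169 CPM in that library and to 276 to 394 CPM in the other KO quiescent libraries. The antisense gene Gm11149 shares 417 of the 8664 exon bases of Ncam1 and has 162 counts over all libraries.

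Cadm1 (ENSMUSG00000032076; chromosome 9, 47530173 to 47857637, plus strand), a nectin-like adhesion protein, was at 14.8, 16.4, 6.93 and 10.98 CPM in WT quiescent and 6.86 and 2.19 CPM in WT activated libraries, the last from 5 reads. Its log2 fold change in WT was -1.33 (SE 0.49, adjusted p = 0.0479, edgeR), just past the threshold. The call was lost without WT quiescent replicates 1, 2 or 4 or WT activated replicate 2, each left out alone (adjusted p of 0.05705 to 0.3954, edgeR). Without the last of these libraries the log2 fold change was -0.78, and without WT activated replicate 1 it was -2.40 (adjusted p = 0.02569, edgeR). In KO it was at 11.5, 11.4, 11.5 and 9.59 CPM against 3.34 and 9.13 CPM, and the log2 fold change of -0.81 did not pass (adjusted p = 0.1838, edgeR). It was -0.27 without KO activated replicate 1 and -1.70 without KO activated replicate 2, and did not pass in either case (adjusted p of 0.7157 and 0.07309, edgeR). Without both activated libraries of over 20% ribosomal counts it passed, at -1.70 (adjusted p = 0.04495, edgeR).

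The second question was whether loss of Cxcr4 changed these genes in quiescent cells. None of the 9 passed the test between KO and WT, none had an unadjusted p under 0.05, and DESeq2 called none either, where 0.0155% of all genes tested passed with edgeR. Their log2 fold changes ran from -0.19 (Ncam1) to 0.09 (Cdh15). WT and KO libraries overlapped for each of them. Cdh15 averaged 167 ± 9.42 CPM over the WT and 178 ± 39.6 CPM over the KO libraries (SD, n = 4 a group), and its 95% interval ran from -0.32 to 0.50 on the log2 scale. For Cdh2, at 7.89 ± 0.943 CPM and 8.25 ± 1.96 CPM, the interval ran from -0.52 to 0.65. The widest limits among the 9 were -0.88 (Cadm1) and 0.67 (Cdh11). A gene that did not pass is therefore not shown to be equal in WT and KO.

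In activated cells none of the 9 passed between KO and WT with edgeR or DESeq2, and none had an unadjusted p under 0.05, where 0.0504% of all genes tested passed with edgeR. Cdh2 had the lowest log2 fold change, -0.61 (95% interval -1.48 to 0.26, adjusted p = 0.7602, edgeR), and its WT and KO libraries overlapped. Cdh15 was higher in both KO libraries (69.6 and 65.9 CPM) than in both WT ones (53.6 and 50.8 CPM), with a log2 fold change of 0.38 that did not pass (95% interval -0.23 to 0.98, adjusted p = 0.8115, edgeR). Cdh11 was also higher in both KO libraries (5.14 and 7.98 CPM) than in both WT ones (5.06 and 4.38 CPM), at 0.46 (95% interval -0.59 to 1.52, adjusted p = 0.9211, edgeR). Groups of 2 libraries often separate in this way without a difference, and the share over all genes was not counted. For the other 6 the log2 fold changes were 0.26 (Cdh4), -0.13 (Ctnna1), -0.28 (Ctnnb1), -0.05 (Ctnnd1), 0.02 (Ncam1) and 0.36 (Cadm1). The outermost interval limits were -1.48 (Cdh2) and 1.54 (Cadm1), wider than in quiescent cells.

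The difference of the KO effect between the states was tested as an interaction, which also asks whether the response to culture differed between genotypes. None of the 9 passed with edgeR or DESeq2 and none had an unadjusted p under 0.05, and 0% of all genes passed with edgeR. The extremes were Cdh2 at -0.68 (95% interval -1.73 to 0.37, adjusted p = 0.9278, edgeR) and Cadm1 at 0.51 (95% interval -0.87 to 1.90). The rise of Cdh2, called in WT and not in KO, was therefore not shown to differ between them.

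A further 44 adhesion genes, related by family or function, were described for comparison, and all were tested. In WT 2 were higher and 28 lower in activated cells (median log2 fold change -2.03), and in KO 0 were higher and 32 lower (median -2.02). Over all genes tested, 11.5% were higher and 18.3% lower in WT, and 13.3% higher and 20.4% lower in KO. The medians over all genes tested were -0.92 and -0.96. Several of the 44 were at 0 in every activated library of a genotype. With these at the fold between the quiescent mean and the level of 3 counts over the activated group, the medians of the 44 were -1.80 and -2.01. None of the 44 passed between KO and WT in either state or in the interaction with edgeR. Of these 44, 0 in quiescent and 7 in activated cells had an unadjusted p under 0.05, and 6 did in the interaction. Over all genes tested these shares were 1.74%, 8.37% and 6.59%.

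Of the 9 other cadherins, 4 fell in WT and 5 in KO. P-cadherin (Cdh3), at 2.00 ± 0.996 CPM in WT quiescent cells, was at 0 in WT activated cells. Its quiescent mean was 5.60-fold above the 0.3569 CPM that 3 counts over the group allow. The lowest WT quiescent library held 1.35 CPM of Cdh3. E-cadherin (Cdh1), the cadherin of epithelia, was at 8.13 ± 4.55 CPM in KO quiescent and 0 in KO activated cells. Its quiescent mean was 22.4-fold above the 0.3625 CPM that 3 counts over the group allow. The lowest KO quiescent library held 3.64 CPM of Cdh1. Cdh8 was at 1.73 ± 1.47 CPM in KO quiescent and 0 in KO activated cells. Its quiescent mean was 4.78-fold above the 0.3625 CPM that 3 counts over the group allow, but its lowest library, at 0.236 CPM, was below that level. VE-cadherin (Cdh5), a defining endothelial gene, was at 120 to 290 CPM in the WT quiescent libraries and did not pass on activation (log2 fold change -0.68, adjusted p = 0.4332, edgeR, in WT).

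Of the 13 catenin relatives and junction partners, 8 fell in WT and 11 in KO. Ctnna2, the α-catenin of neurons, was at 1.82 ± 1.64 CPM in KO quiescent and 0 in KO activated cells. Its quiescent mean was 5.02-fold above the 0.3625 CPM that 3 counts over the group allow, but its lowest library, at 0.283 CPM, was below that level. Of the 18 other immunoglobulin-type genes, 16 fell in each genotype. Cadm2, at 6.53 ± 1.38 CPM in WT quiescent cells, was at least 18.3-fold lower in WT activated cells, and Chl1 at least 16.0-fold lower. The genes that rose in WT were St8sia2, an enzyme that adds polysialic acid to Ncam1, and Adam17, a protease that sheds surface proteins. St8sia2 went from 3.79 ± 0.514 CPM (SD, n = 4) to 16.5 ± 8.51 CPM (SD, n = 2) in WT (log2 fold change 2.15, SE 0.44, adjusted p = 0.0009719, edgeR). In KO it was at 3.21 ± 1.39 CPM against 6.46 ± 1.40 CPM and did not pass (log2 fold change 1.01, adjusted p = 0.1007, edgeR). Adam17 went from 36.9 ± 4.53 CPM to 57.1 ± 4.54 CPM in WT (log2 fold change 0.63, adjusted p = 0.04434, edgeR). Markers of other cell types were measured beside these lists. Smooth muscle and pericyte markers summed to 1414 to 2563 CPM in quiescent and 164 to 362 CPM in activated libraries, Schwann cell markers to 169 to 394 CPM and 30.7 to 137 CPM, and endothelial markers, which overlapped, to 223 to 986 CPM and 89.8 to 647 CPM. Of the 5 smooth muscle and pericyte markers, 4 fell in WT and 5 in KO. Notch3 was the highest of them in WT quiescent cells, averaging 895 CPM there and 18.2 CPM in WT activated cells. Cspg4 did not pass in WT (log2 fold change -0.24, adjusted p = 0.7033, edgeR). The part of these cell types in the falls was not tested.

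**Figure D4:**
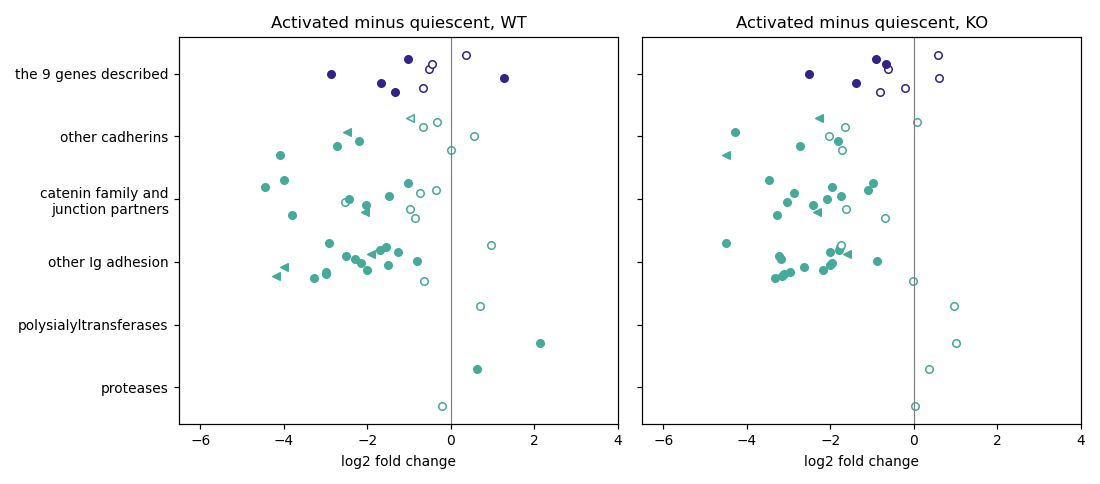
Each point is the log2 fold change of 1 gene in activated minus quiescent cells, in WT (left) and KO (right), for the 9 genes described and the 5 lists of the other 44. Filled points passed an adjusted p of 0.05. Triangles are genes at 0 in both activated libraries, drawn at the fold between the quiescent mean and the level that 3 counts allow. In the list of other immunoglobulin-type genes 16 of 18 are filled and left of 0 in each genotype.

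The genes whose log2 CPM followed Cdh15 most closely over the 12 libraries, among 16371 genes with a mean of at least 1 CPM, were Pcbp4, Rsu1 and Tlr6, with Pearson's r of 0.98 for each. Those closest to Cdh2 were Anapc11, Ndc1 and Pigq, with r of 0.93 for each. These values are descriptions, since the 12 points fall into a quiescent and an activated cluster that also differ in depth.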

How the data were processed

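RNA-seq reads of 12 libraries of sorted satellite cells were processed by the authors, who trimmed them with Trim Galore 0.6.0, mapped them to GRCm38.p6 with STAR 2.7.2a and counted them over GENCODE genes with Rsubread; the strand and multi-mapping settings are not given in the sources used here. The deposited values are raw counts per gene and library, and a deposited table of FPKM with 1 value per group, used only as a check. The study's own test was DESeq2 1.34.0.

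Counts were tested with edgeR 4.0.16 (limma 3.58.1, R 4.3.3): filterByExpr, TMM scaling, 1 quasi-likelihood fit over all 4 groups, and Benjamini-Hochberg adjustment over all 25771 genes tested. A gene was called at an adjusted p under 0.05. SE is the log2 fold change divided by the root of F. CPM are TMM-scaled, and per-length values use the union of exons in GENCODE. The alternatives were DESeq2 1.42.0, other scalings and filters, a robust fit, a replicate block, the compared groups alone and each library left out. The code was tested on simulated data. The 9 genes and all lists were chosen with earlier results of these data known. Values of all 9 are given in every comparison. Of the 44 others, at most 3 extremes on either side were named among those called, and Cdh5 and Cdh13 were named after their values were seen. The 3 closest genes are given for Cdh15 and Cdh2. Libraries whose labels share a number were not treated as paired.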

Additional observations from a re-analysis of the deposited data

Results flagged for a closer look

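In the groups of 4 libraries, 2 of 18 values of the 9 genes had an extreme library set apart from the other 3 by Dixon's criterion, which flags about 1 group in 20 by chance. Cdh4 in KO quiescent replicate 1 was at 28.01 CPM, above 23.5 to 24.1 CPM in the others. Cadm1 in KO quiescent replicate 4 was at 9.59 CPM, below 11.4 to 11.5 CPM in the others. No difference of the KO effect between states was called.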

How the results depend on the processing

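The falls of Cdh15 and Cdh4 on activation passed the threshold in both genotypes under each of the 9 other settings and without any 1 library. In WT the count of the 9 genes called was 5, and 4 or 5 under the planned settings. It was 2 without both activated libraries with over 20% ribosomal counts, a setting chosen after seeing the data, and 2 to 5 with 1 library left out. In KO the count was 4, and it was 2 when a log2 fold change over 1 was also asked for, 2 with the compared groups alone, 3 to 5 under the others, and 2 to 5 with 1 library left out. None of the 9 was called between genotypes or in the interaction under any setting. Where a lone library stood for an activated group, it was assumed to vary like the other groups. With the replicate block 5 genes were called in WT, 5 in KO and 0 between genotypes, with Ncam1 in KO at 0.89. Pairing by number was not settled: quiescent deviations of the same number correlated at 0.17, 0.17, -0.17 and 0.47, not always the best match. Deviations in activated groups of 2 mirror each other and cannot tell.

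Signs changed only for values that did not pass. Cdh11 between genotypes in quiescent cells was -0.0008 with the block and -0.007 without CT010467.1. Ncam1 in activated cells was -0.044 with DESeq2 size factors, -0.044 with DESeq2 and -0.037 with the compared groups alone. Without both libraries of high ribosomal share, the log2 fold change between genotypes in activated cells was 0.058 for Cdh2, -0.007 for Cdh11, 0.16 for Ctnnd1 and -1.06 for Cadm1, and the interaction of Cadm1 was -0.90. With 1 library left out, Cdh11 on activation in KO ran from -0.54 to 0.073. Between genotypes in quiescent cells the ranges were -0.11 to 0.16 for Cdh2, -0.023 to 0.23 for Cdh15, -0.15 to 0.049 for Cdh4, -0.13 to 0.17 for Cdh11, -0.092 to 0.053 for Ctnna1 and -0.35 to 0.026 for Cadm1. In activated cells they were -0.12 to 0.46 for Cdh4, -0.55 to 0.26 for Ctnnd1, -0.25 to 0.15 for Ncam1 and -0.60 to 1.41 for Cadm1, and the interaction of Cadm1 ran from -0.44 to 1.57. The cause was not tested. Over all genes, 7674 were called on activation in WT and 8693 in KO. Without both libraries of high ribosomal share 4714 and 5652 were called, with a median shift of -0.18 in KO over the genes tested in both fits. Left out alone, WT activated replicates 1 and 2 gave 5106 and 4524 in WT, and KO activated replicates 1 and 2 gave 5066 and 5377 in KO. Between genotypes 4 genes were called in quiescent cells, 50 with no filter, and 3 to 7 with 1 library left out (7 without KO quiescent replicate 3). In activated cells 13 were called, against 8 with DESeq2 size factors, 2 with a mean count of at least 10, 3 with the compared groups alone, 20 with the robust fit, 23 with the block, 334 with no filter, 145 with DESeq2 and 83 without both libraries of high ribosomal share. With 1 library left out this count was 0 (WT activated replicate 1), 211 (WT activated replicate 2), 59 (KO activated replicate 1) or 2 (KO activated replicate 2). In the interaction 0 were called, against 170 with no filter, 48 with DESeq2, 8 with the robust fit, 6 with the block, 1 without CT010467.1, 48 without both libraries of high ribosomal share, and 0 to 82 with 1 library left out (82 without WT activated replicate 2). The activated libraries limit the precision, with 5 to 83 reads each for Cdh2, Cdh4, Cdh11 and Cadm1.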

Other observations

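The authors' FPKM of the 9 genes, 1 value per group, differed from the mean CPM per kilobase by less than the SD between libraries in 35 of 36 cases. The exception was Cadm1 in KO quiescent cells, listed at 0.910 FPKM against 1.06 ± 0.0916 CPM per kilobase (SD, n = 4).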
